A study of Rattus norvegicus with 18 samples.

Results

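The respiratory chain genes were taken from a table of RNA levels in microdissected rat cortical collecting ducts. Members were the rows whose symbol begins with Nduf, Uqcr, Atp5 or Mt-, is Sdha, Sdhb, Sdhc or Sdhd, or begins with Cox followed by a digit from 4 to 8. This rule uses names and no measured value. It found 111 of 32883 rows, of which 98 are nuclear genes and 13 are the protein genes of mitochondrial DNA. A mean of at least 1 TPM, a transcript abundance corrected for length that sums to the same total in each library, was required for testing. It was met by 87 of the 98 nuclear rows, by all 13 mitochondrially encoded rows and by 12393 rows of the table.

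Every animal was a pathogen-free male Sprague-Dawley rat, and no age or genetic alteration is given in the labels. One group received lipopolysaccharide (LPS), the endotoxin of Gram-negative bacteria, by intraperitoneal injection, and the other received normal saline as Vehicle. Ducts were dissected 3 h later. Each group had 3 numbered samples, each with 3 libraries, 18 in all. The cortical collecting duct is a mixture of principal and intercalated cells, so in these bulk samples fewer cells of a type and less RNA per cell cannot be told apart.

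The chain is built from complexes in the inner mitochondrial membrane. Complex I takes electrons from NADH and complex II from succinate, complex III passes them to cytochrome c, and complex IV gives them to oxygen. Complexes I, III and IV pump protons, and complex V, the ATP synthase, uses the returning protons to make ATP. Most subunits are nuclear, while a few central ones are encoded in mitochondrial DNA, copied as long transcripts from both strands and cut into single messages. Collecting duct cells use ATP for sodium reabsorption through the sodium pump and, in intercalated cells, for acid secretion by proton pumps.

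Promoter sequences are shown for 4 nuclear members because the regulators known for this gene family, NRF1, the ETS factor GABP and YY1, bind near start sites. The windows run from 250 bases before to 50 bases after the annotated start, 300 bases in all, and come from RefSeq on build GRCr8. They were searched on both strands for an NRF1 core, GCGCATGC, an ETS core, CCGGAAGT, and a YY1 core, AANATGGCG. Ndufs1 and Ndufaf7 are shown because they were the nuclear members called lower, Atp5f1b as the nuclear member with the highest TPM, and Atp5mg as the most abundant member with an NRF1 core. Each is printed 5′ to 3′ on the strand of its gene, with capitals marking a match of any of the 3 cores on either strand.
Ndufs1 (chr9:72073556-72073855, minus strand): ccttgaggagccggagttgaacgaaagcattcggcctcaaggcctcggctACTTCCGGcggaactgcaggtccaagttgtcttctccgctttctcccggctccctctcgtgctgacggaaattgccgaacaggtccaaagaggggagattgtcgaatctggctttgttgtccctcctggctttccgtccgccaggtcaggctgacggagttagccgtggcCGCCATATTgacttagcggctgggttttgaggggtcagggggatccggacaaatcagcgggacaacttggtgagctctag
Ndufaf7 (chr6:21871916-21872215, minus strand): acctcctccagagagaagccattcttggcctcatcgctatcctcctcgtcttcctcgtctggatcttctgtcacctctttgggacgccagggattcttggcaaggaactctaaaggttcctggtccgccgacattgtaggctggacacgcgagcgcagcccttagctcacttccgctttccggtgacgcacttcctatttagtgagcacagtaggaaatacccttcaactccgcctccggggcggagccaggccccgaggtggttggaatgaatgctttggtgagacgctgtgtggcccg
Atp5f1b (chr7:1099808-1100107, plus strand): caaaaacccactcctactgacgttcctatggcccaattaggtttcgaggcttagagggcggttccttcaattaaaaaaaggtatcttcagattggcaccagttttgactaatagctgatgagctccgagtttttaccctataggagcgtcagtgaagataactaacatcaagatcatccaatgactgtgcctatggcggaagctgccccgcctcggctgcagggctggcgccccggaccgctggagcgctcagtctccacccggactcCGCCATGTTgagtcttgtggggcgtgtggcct
Atp5mg (chr8:54130358-54130657, minus strand): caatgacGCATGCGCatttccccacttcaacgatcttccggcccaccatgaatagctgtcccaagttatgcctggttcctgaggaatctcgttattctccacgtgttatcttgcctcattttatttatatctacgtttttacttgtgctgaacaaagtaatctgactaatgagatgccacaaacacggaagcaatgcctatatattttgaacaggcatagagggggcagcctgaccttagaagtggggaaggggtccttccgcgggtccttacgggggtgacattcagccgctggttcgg

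The Ndufs1 window held an ETS core and a YY1 core, the Atp5f1b window a YY1 core and the Atp5mg window an NRF1 core. No match was found in the Ndufaf7 window. Of 94 nuclear member symbols, 81 matched a promoter entry. The YY1 core was in 19 of these 81 windows, or 23.5%, against 3.01% of all 33469 windows and 6.65% of the 9647 windows of genes tested here. Most of these YY1 matches began after the annotated start, as in Atp5f1b, at position 18, while that in Ndufs1 began before it, at -30. The core holds the letters ATG, and overlap with start codons was not tested. The NRF1 core was in 11, or 13.6%, against 2.47% of all windows and 5.28% of those of tested genes. The ETS core was in 8, or 9.88%, against 3.81% and 8.69%. In 0 of the 81 windows did matches of different cores overlap. A match is a run of letters and not evidence of binding.

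The libraries carried collecting duct markers at high level. The summed TPM of 8 principal cell markers was 15408 to 17055 in Vehicle and 9124 to 12673 in LPS, and that of 9 intercalated cell markers was 9835 to 10276 in Vehicle and 7323 to 9528 in LPS. None of these markers was below 1 TPM. The sums were thus lower in every LPS sample for both cell types, and their part in the results below was not tested. By limma 5 of the 8 and 2 of the 9 were called lower and 0 higher, against 22.2% and 7.17% of all tested genes. The principal cell markers did not fall alike. Mean TPM of Scnn1b, Scnn1g and Fxyd4 was 637, 817 and 646 in Vehicle against 606, 771 and 637 in LPS. Markers of proximal tubule, a segment rich in mitochondria, summed to 7.34 to 36.6 TPM in Vehicle and 3.14 to 33.9 TPM in LPS, with 7 of 12 under 1 TPM, Lrp2 and Cubn among them. Thick ascending limb markers summed to 154 to 184 TPM in Vehicle and 152 to 335 TPM in LPS, with Slc12a1 at a mean of 0.369 TPM and 1.82 TPM. Macrophage markers summed to 130 to 270 TPM in Vehicle and 223 to 470 TPM in LPS, with 5 of 11 tested called higher and 1 lower. Red cell markers summed to 2272 TPM in LPS 1, 1009 TPM in Vehicle 1 and 27.5 to 267 TPM in the other samples. The 4 distal convoluted tubule markers summed to 4946 TPM in Vehicle 1, where Calb1 was high, and to at most 212 TPM in the other samples, with Pvalb listed at 0 and Slc12a3 at 0.0822 TPM in Vehicle. On the first principal component, with 56.1% of the variance, LPS 1 (16.9) lay between the Vehicle mean (-51.8) and LPS 2 and LPS 3 (70.1 and 68.4).

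Nuclear respiratory chain RNA was abundant, and few of its genes were called changed 3 h after LPS. The nuclear members together made up 7.79%, 8.35% and 7.12% of TPM in the Vehicle samples (7.75% ± 0.617, SD, n = 3) and 8.43%, 7.11% and 7.40% in the LPS samples (7.65% ± 0.693, SD, n = 3). These groups overlapped. Of 87 tested nuclear members, 0 were called higher and 2 lower, Ndufs1 and Ndufaf7, by limma at an adjusted p under 0.05. Across all 12393 tested genes 29.4% were called, 7.17% higher and 22.2% lower, against 2.3% of the nuclear members. At an unadjusted p under 0.05 there were 3 lower and 0 higher nuclear members, against 4679 lower and 1176 higher among all tested genes. Without replicate 2 the nuclear calls were 0 (4 higher and 2 lower unadjusted). There limma called 419 of all tested genes higher and 296, or 2.39%, lower (880 and 2272 unadjusted). Without replicate 3 the nuclear calls were 0 (0 unadjusted), and 0 of all tested genes were called (738 higher and 1463 lower unadjusted). Without LPS 1, in a fit with no block, 18 nuclear members (20.7%) were lower, against 46.4% of all tested genes, and a fit of all 18 libraries with an estimated correlation called 11 (12.6%) lower, against 42.7%. All LPS samples lay below all Vehicle samples in 10 nuclear members (11.5%), against 47.1% of all tested genes, and above them in 2, against 9.82%.

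The median log2 change of the nuclear members was -0.065, against -0.382 over all tested genes, on the log2(TPM + 1) scale. Of the 87, 56 were below 0 and 31 above. Their changes in TPM were also small in size: 74 of 87, or 85.1%, lay within 0.25 of 0, against 24.9% of all tested genes. With median-ratio scaling they were larger, with a median of 0.341. There 35 of the 87 were higher at an unadjusted p under 0.05 by limma, against 2328 of all 12393 tested genes. For 84 members (96.6%) the 95% interval of the change in TPM stayed within 2-fold, against 46.1% of all tested genes, and for 72 (82.8%) it stayed within 1.5-fold, against 11.9%. These comparisons were not matched for abundance: the median in Vehicle was 645 TPM for nuclear members and 16.6 TPM for all tested genes. By sample number the median change of the nuclear members was 0.054, -0.262 and 0.009, below 0 for number 2 alone, and over all tested genes it was -0.202, -0.371 and -0.537.

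The sign of this family's change depended on how the libraries were scaled: TPM gave a median of -0.065, median-ratio scaling 0.341 and quantile normalization -0.14. The median of all tested genes was -0.382, -0.02 and -0.13 under the same 3 scalings. Relative to that median the nuclear members were therefore 0.317 higher in TPM and 0.362 higher with median-ratio scaling, and differed from it by -0.011 with quantile normalization. With median-ratio scaling 1 nuclear member was called higher, Ndufa3, and 0 lower, against 6.62% of all genes called higher. With quantile normalization 1 was called lower, Ndufs1, against 4.5% of all genes. Ndufa3, an accessory subunit of complex I, is named here after its values were seen. It measured 1068 ± 92.5 TPM in Vehicle against 1254 ± 111 TPM in LPS (SD, n = 3), with the 3 LPS samples above the 3 Vehicle samples and a log2 change of 0.236 in TPM (limma adjusted p = 0.182).

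**Figure D1:**
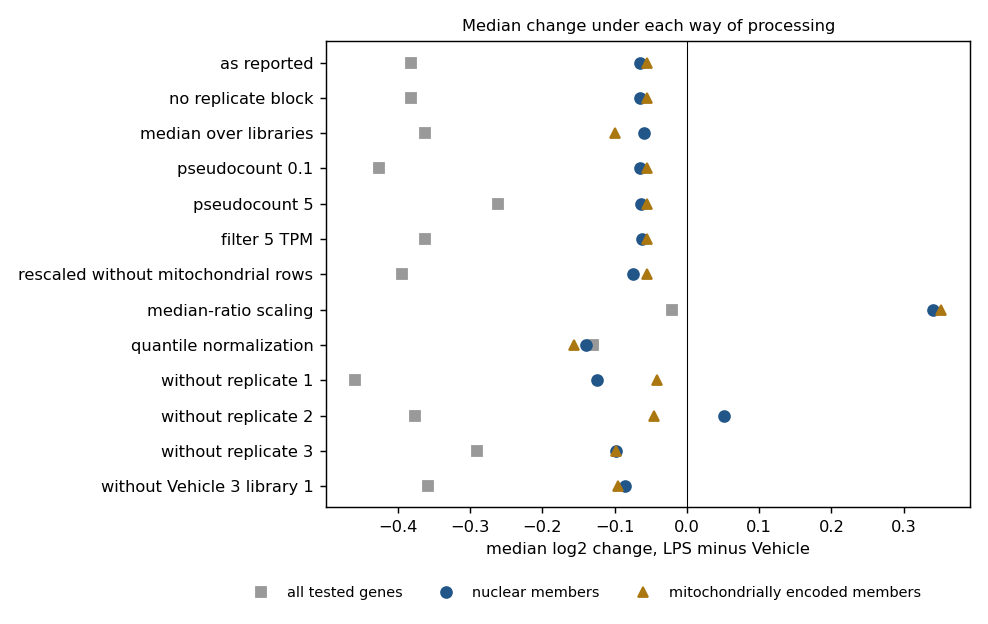
Median log2 change, LPS minus Vehicle (x axis), of all tested genes (squares), nuclear members (circles) and mitochondrially encoded members (triangles) under 13 ways of processing (y axis). Both member sets lie to the right of all tested genes in each row except quantile normalization, and they lie above 0 together only with median-ratio scaling.

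Both nuclear calls were in genes of complex I, a core subunit and an assembly factor. The core subunits carry the flavin and the iron-sulfur clusters that move electrons. Ndufs1 (ENSRNOG00000011849), which encodes the largest of these iron-sulfur subunits, was at 343, 327 and 350 TPM in Vehicle 1 to 3 and at 278, 216 and 224 TPM in LPS 1 to 3. Every LPS sample was below every Vehicle sample, with LPS 1 the nearest to Vehicle. Ndufs1 fell by 0.512 in log2 terms (SE 0.143, limma adjusted p = 0.0391), lower in 3 of 3 pairs. The call was kept with quantile normalization (-0.576, adjusted p = 0.0486) and lost with median-ratio scaling (-0.106, adjusted p = 0.508), without replicate 2 (-0.472, adjusted p = 0.169), without replicate 3 (-0.446, adjusted p = 0.303) and without library 1 of Vehicle 3 (-0.485, adjusted p = 0.051). It was also lost with no variance trend (adjusted p = 0.0817), with medians over libraries (adjusted p = 0.0873) and with no filter (adjusted p = 0.112).

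The other 6 core subunits were not called, though Ndufs3 was called lower in the fit of all 18 libraries, and Ndufs3 and Ndufv2 without LPS 1 in a fit with no block. The most negative log2 change among them was -0.295, for Ndufs3, and the median over the 7 core subunits was -0.132. Ndufv1, which binds the flavin that accepts electrons from NADH, was at 454 ± 35.4 TPM in Vehicle against 433 ± 46.7 TPM in LPS (SD, n = 3). Ndufv2, an iron-sulfur subunit next to it, was at 721 ± 29.8 TPM in Vehicle against 620 ± 34.6 TPM in LPS, with groups that did not overlap (limma adjusted p = 0.191). Ndufv1, Ndufv2 and Ndufs3 were chosen after their values were seen.

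The accessory subunits surround the core and hold no redox centre. Of 31 rows, 29 were tested and 0 were called in either direction by limma, also at an unadjusted p under 0.05, with a median log2 change of -0.07. Without LPS 1, in a fit with no block, 4 of the 29 were called lower, against 46.4% of all tested genes. These were Ndufa8, Ndufa9, Ndufb7 and Ndufc2. Ndufa8 was also called lower in the fit of all 18 libraries, against 42.7% of all tested genes. Ndufb4, the most abundant accessory subunit, was at 1240, 1280 and 1106 TPM in Vehicle and at 1318, 1126 and 1048 TPM in LPS. The values interleaved, with LPS 1 the highest of all (log2 change -0.056, limma adjusted p = 0.715). Ndufv3 appears in 2 rows with different Ensembl identifiers, and reads that fit both, if any, were divided by estimate. The more abundant row was at 327 ± 25.6 TPM in Vehicle against 309 ± 44.8 TPM in LPS (SD, n = 3). The other had the largest positive change of the complex, 0.444 on the log2 scale (limma adjusted p = 0.168), at 25.2 ± 6.73 TPM in Vehicle against 33.4 ± 2.35 TPM in LPS.

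Ndufa1 (ENSRNOG00000040005), a small membrane subunit needed for complex I assembly, had the most negative log2 change of all nuclear members, -1.68 (SE 0.887, limma adjusted p = 0.172), and it did not pass the test. Its libraries did not resemble one another within a sample. In Vehicle 1 it was listed at 0, 220 and 0 TPM, in Vehicle 2 at 0, 222 and 19.9 TPM, and in Vehicle 3 at 205, 21.4 and 76.2 TPM. In LPS 1 it was listed at 35.5, 0 and 0 TPM, in LPS 2 at 104, 162 and 0 TPM, and in LPS 3 at 0, 15.7 and 0 TPM. It was thus listed at 0 in 8 of 18 libraries, of both groups. The SD between libraries of a sample was 3.39 on the log2 scale, against a median of 0.132 over the nuclear members. A value listed at 0 for a gene of this kind can be a failed estimate, and Ndufa1 gives no comparison between the groups.

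The 8 complex I assembly factors, which help build the complex and are not part of it, were the nuclear members with the most negative median, -0.358. This is close to the -0.382 of all tested genes. They are also the least abundant group, with a median of 26.1 TPM in Vehicle against 645 TPM over all nuclear members. Ndufaf7 (ENSRNOG00000005279), a methyltransferase needed for complex I assembly, was at 30.0, 26.0 and 29.4 TPM in Vehicle 1 to 3 and at 23.7, 12.7 and 13.9 TPM in LPS 1 to 3. LPS 1 was nearest to Vehicle and still below its lowest sample. Ndufaf7 fell by 0.776 in log2 terms (SE 0.214, limma adjusted p = 0.038), lower in 3 of 3 pairs. The call was lost with median-ratio scaling (-0.389, adjusted p = 0.13), quantile normalization (-0.447, adjusted p = 0.112), without replicate 2 (-0.677, adjusted p = 0.239), without replicate 3 (-0.651, adjusted p = 0.303) and without library 1 of Vehicle 3 (-0.773, adjusted p = 0.0538). It was also lost with medians over libraries (adjusted p = 0.0931) and with no filter (adjusted p = 0.116).

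Among the other assembly factors, Ndufaf3 had tight Vehicle values of 40.6, 40.1 and 40.4 TPM and LPS values of 33.4, 23.7 and 26.4 TPM. Its groups did not overlap, but its log2 change of -0.535 missed the threshold (SE 0.184, limma adjusted p = 0.0647). Without the block it was called (adjusted p = 0.0385). Ndufaf1 and Ndufaf2 also had all LPS samples below all Vehicle samples, at 13.1 ± 0.589 and 9.6 ± 1.52 TPM for Ndufaf1 and 4.59 ± 1.15 and 3.08 ± 0.165 TPM for Ndufaf2 (SD, n = 3, Vehicle and LPS). Ndufaf8, the most abundant of these factors, was at 170 ± 8.75 TPM in Vehicle against 191 ± 17.6 TPM in LPS, the single positive change of the group (0.166, limma adjusted p = 0.407). In all, 4 of 8 had groups that did not overlap, which is 50%, near the 47.1% of all tested genes. The fit of all 18 libraries called Ndufaf1, Ndufaf2, Ndufaf3, Ndufaf5 and Ndufaf7 lower, against 42.7% of all tested genes. Without LPS 1, in a fit with no block, Ndufaf1, Ndufaf3, Ndufaf5, Ndufaf6 and Ndufaf7 were called lower, against 46.4%. Ndufaf1, Ndufaf2, Ndufaf3, Ndufaf5 and Ndufaf6 were named after their values were seen.

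**Figure D2:**
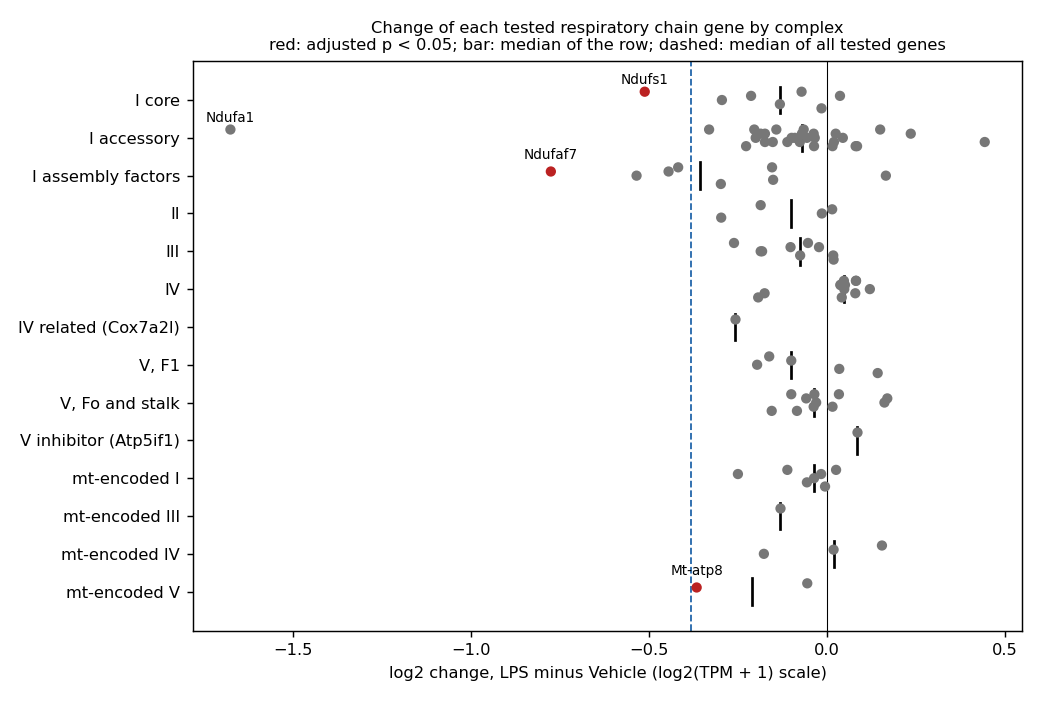
Log2 change, LPS minus Vehicle, of each tested member (points) by complex (y axis), with the median of each row as a bar, adjusted p under 0.05 in red and the all-gene median of -0.382 as a dashed line. Most subunits sit near 0, while the assembly factors spread around the dashed line and Ndufa1 stands alone at -1.68.

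Complex II, succinate dehydrogenase, is fully nuclear and belongs also to the citric acid cycle. All 4 subunits were abundant, and 0 were called (limma, also 0 at an unadjusted p under 0.05). Sdha, the flavoprotein that oxidizes succinate, was at 868, 829 and 804 TPM in Vehicle and at 791, 710 and 699 TPM in LPS. Its groups did not overlap, by a narrow margin, with a log2 change of -0.186 (limma adjusted p = 0.233), and without LPS 1, in a fit with no block, it was called (-0.242, adjusted p = 0.0445). Sdhb, the iron-sulfur subunit, was at 716 ± 54 TPM in Vehicle against 726 ± 95.7 TPM in LPS, and Sdhc, a membrane anchor, at 1258 ± 94.5 and 1244 ± 111 TPM (SD, n = 3). Sdhd, the other membrane anchor, had the largest negative change of the complex. It was at 1120.0, 1161 and 997 TPM in Vehicle and at 1058, 794 and 832 TPM in LPS, so that LPS 1 lay inside the Vehicle range and the other LPS samples below it (log2 change -0.297, limma adjusted p = 0.119). Sdhd was called in the fit of all 18 libraries (adjusted p = 0.00948) and, in a fit with no block, without LPS 1 (-0.425, adjusted p = 0.015).

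Complex III takes electrons from ubiquinol. Its 9 nuclear rows had log2 changes between -0.261 and 0.019, and 0 were called by limma, also at an unadjusted p under 0.05. Uqcr11, a small subunit and the most abundant of the rows, was at 1435 ± 125 TPM in Vehicle against 1412 ± 134 TPM in LPS (SD, n = 3). Uqcrc1, a core protein on the matrix side, had the largest positive change, at 1019 ± 109 and 1032 ± 130 TPM. Uqcrc2, its partner core protein, had the most negative one, at 424, 408 and 387 TPM in Vehicle and at 376, 316 and 327 TPM in LPS. These groups did not overlap (log2 change -0.261, limma adjusted p = 0.152). Without LPS 1, in a fit with no block, Uqcrc2 was called lower (-0.339, limma adjusted p = 0.0165), as were 46.4% of all tested genes. Uqcrh, named after its values were seen, was also called lower there. In the fit of all 18 libraries Uqcrc2 was called lower, against 42.7% of all tested genes.

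Complex IV, cytochrome c oxidase, hands electrons to oxygen. Its 12 nuclear rows were the only nuclear complex with a median above 0, 0.048 in TPM, 0.454 by median ratio and -0.115 by quantiles. None was called by limma, also at an unadjusted p under 0.05, and 10 of 12 were above 0 in TPM. Cox8a, a small structural subunit and the most abundant, was at 4975, 5467 and 4431 TPM in Vehicle and at 5529, 5046 and 5147 TPM in LPS. The groups overlapped, with a log2 change of 0.082 (95% interval -0.163 to 0.327). Cox4i1, the regulatory subunit of most tissues, was at 399 ± 73.1 TPM in Vehicle against 419 ± 23.9 TPM in LPS (SD, n = 3). Ndufa4, named for complex I but now placed in complex IV, was at 1118 ± 98.6 and 1151 ± 95.5 TPM. The row with the symbol Cox7a2l2, which the table annotates as COX7A2, had the largest positive change, at 1918 ± 183 and 2076 ± 134 TPM (0.121, limma adjusted p = 0.401). Cox6b1 here and Uqcrb in complex III each had 2 rows, all tested and not called. Their log2 changes were 0.042 and 0.048 for Cox6b1 and -0.182 and -0.075 for Uqcrb. With median-ratio scaling and no block, Cox7a2l2 and a row of Cox6b1 were called higher, as were 11.5% of all tested genes.

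Cox7b and Cox7c, small subunits named after their values were seen, went against the rest of complex IV. Cox7b was at 1543, 1654 and 1565 TPM in Vehicle and at 1458, 1317 and 1439 TPM in LPS. Cox7c was at 1135, 1233 and 1104 TPM in Vehicle and at 1025, 1044 and 957 TPM in LPS. In both genes every LPS sample was below every Vehicle sample. Their changes of -0.175 and -0.193 did not pass the test (limma adjusted p = 0.244 and 0.201). Cox7b and Cox7c were the 2 of 12 complex IV rows (16.7%) with such groups, against 47.1% of all tested genes.

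Paralogs that other tissues use were listed at or near 0 TPM. Such a value does not show that a gene is silent, since this table also lists Ndufs6 at 0 in 10 of 18 libraries and the assembly factor gene Sdhaf1 at 0 in all 18. Cox4i2, the isoform known from lung, was at 0.264 TPM in Vehicle against 0.291 TPM in LPS, and Ndufa4l2, which hypoxia is known to induce, at 0.203 and 0.0889 TPM. The muscle-type genes Cox6a2 and Cox7a1 were at 0.0567 and 0.247 TPM in Vehicle, and Cox7b2, Cox8b and Cox8c were listed at 0 in every sample. Cox6b2 was at 0.621 TPM and 0.343 TPM in Vehicle and LPS, and the pseudogene Cox6c-ps1 at 0.0333 TPM and 0.03 TPM. With a second Ndufa10l1 row (0.42 TPM and 0.43 TPM) and Ndufs6 (0.643 TPM and 0.557 TPM), an accessory subunit of complex I, these are the 11 nuclear rows below the 1 TPM needed for a test. In contrast, Cox7a2l, which binds complexes III and IV together into supercomplexes, was at 108, 97.3 and 92.3 TPM in Vehicle and at 105, 68.7 and 77.8 TPM in LPS. LPS 1 lay inside the Vehicle range (log2 change -0.258, limma adjusted p = 0.251). It was called lower without LPS 1, in a fit with no block (-0.428, adjusted p = 0.0188), and in the fit of all 18 libraries.

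Complex V, the ATP synthase, has a catalytic F1 head and a membrane Fo part joined by stalks. Its 17 nuclear rows ran from -0.196 to 0.17 on the log2 scale, and 0 were called by limma, also at an unadjusted p under 0.05. Atp5f1b, the catalytic beta subunit whose promoter is shown above, was at 5125, 5557 and 5117 TPM in Vehicle and at 5390, 4584 and 4796 TPM in LPS. LPS 1 lay inside the Vehicle range and the others below it, and the change was -0.1 (95% interval -0.343 to 0.144). Atp5f1c, the rotating gamma subunit, had the most negative change, at 1307 ± 118 TPM in Vehicle against 1150 ± 204 TPM in LPS (SD, n = 3). Without LPS 1, in a fit with no block, it was called lower (-0.336, adjusted p = 0.0442). Atp5mg, a membrane subunit, had the largest positive one, at 2466, 2545 and 2252 TPM in Vehicle and at 2784, 2575 and 2797 TPM in LPS. All LPS samples were above all Vehicle samples (0.17, limma adjusted p = 0.244). With quantile normalization the change of Atp5mg was 0.031, and with median-ratio scaling it was 0.577 (limma adjusted p = 0.0832). With median-ratio scaling and no block Atp5mg was called higher, as were 11.5% of all tested genes.

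Atp5if1, which blocks the synthase from running backwards and consuming ATP, was at 1639, 1463 and 1656 TPM in Vehicle and at 1857, 1535 and 1648 TPM in LPS. The groups overlapped, and the log2 change was 0.084 (95% interval -0.168 to 0.336). With median-ratio scaling and no block Atp5if1 was called higher, as were 11.5% of all tested genes.

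By summed TPM the complexes kept similar shares in the groups. Nuclear complex I subunits held 1.88% ± 0.135 of TPM in Vehicle and 1.81% ± 0.213 in LPS, complex II 0.39% ± 0.0257 and 0.36% ± 0.0397, and complex III 0.592% ± 0.0442 and 0.562% ± 0.0611 (SD, n = 3). Nuclear complex IV held 2.03% ± 0.187 and 2.08% ± 0.116, and nuclear complex V 2.82% ± 0.229 and 2.8% ± 0.26. In each of these complexes LPS 1 had the highest sum of the LPS samples.

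**Figure D3:**
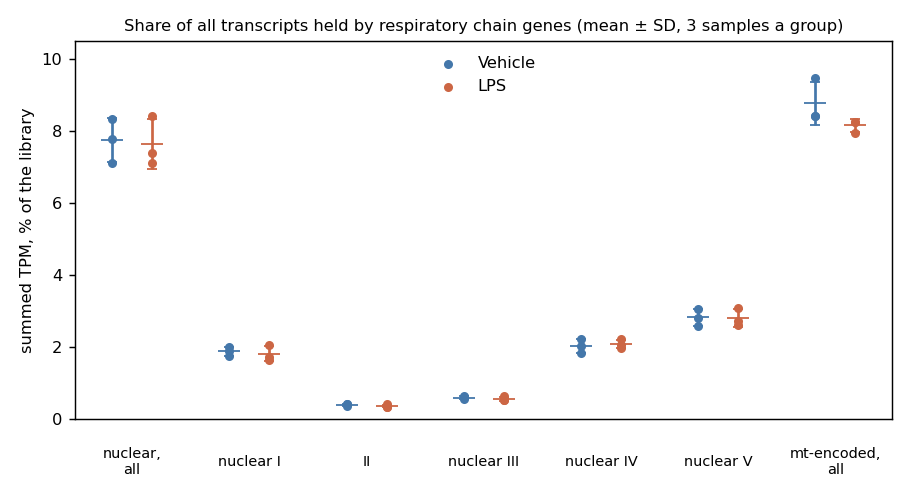
Summed TPM as a percent of the library (y axis, from 0) for nuclear members, each complex and the mitochondrially encoded members. Points are samples, and bars give the mean and SD of 3 samples; the nuclear groups overlap in every complex, and the mitochondrially encoded sum is 8.77% in Vehicle and 8.16% in LPS.

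Less abundant members had more negative changes. Across the 87 tested nuclear members the log2 change and the log2 Vehicle TPM had a Pearson correlation of 0.422 and a Spearman correlation of 0.42, a description over genes that share the same libraries. The 54 members at 500 TPM or more had a median change of -0.035 with 0 called, and the 11 below 100 TPM a median of -0.298. All tested genes at 500 TPM or more, 317 in number, had a median of -0.058, near that of the members, and 17% of them were called. The 317 include these 54 members and the mitochondrially encoded genes at that level, so the comparison is not with other genes alone. Members with a promoter match changed about as much as those without. Medians with and without a match were -0.046 and -0.084 for the NRF1 core, -0.072 and -0.076 for the ETS core, and -0.065 and -0.083 for the YY1 core.

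The mitochondrially encoded set held the most abundant transcripts of the chain, and 1 of 13, Mt-atp8, was called. They made up 9.47%, 8.41% and 8.44% of TPM in Vehicle and 8.27%, 8.26% and 7.96% in LPS. Every LPS sum was below every Vehicle sum, though the lowest Vehicle and highest LPS sums nearly met. Sums of single libraries ran from 7.27% to 11.1%. The median SD of these genes between libraries of a sample was 0.233 on the log2 scale. Between samples it was 0.141 in Vehicle and 0.156 in LPS. By limma 0 were higher and 1 lower, 7.69% of the 13, against 22.2% of all tested genes called lower, and the same 0 and 1 passed an unadjusted p under 0.05. Leaving out a sample number gave 0 lower without replicate 1, 2 lower without replicate 2 and 0 lower without replicate 3 (1, 2 and 0 with unadjusted p under 0.05); the last of these fits called 0 of all 12393 tested genes. The median log2 change was -0.055 in TPM, -0.156 with quantile normalization and 0.352 with median-ratio scaling. For all 13 the 95% interval of the change in TPM stayed within 2-fold. Libraries were made from polyA RNA, so these levels also depend on tails, and nuclear copies of mitochondrial DNA can share reads with these genes.

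Mt-atp8 (ENSRNOG00000033299), which encodes a small membrane subunit of the ATP synthase, was at 10195, 8873 and 9563 TPM in Vehicle and at 7573, 7514 and 7056 TPM in LPS. The groups did not overlap, and here LPS 1 resembled the other LPS samples. Single libraries did overlap, with Vehicle 3 at 10260, 7412 and 11018 TPM and LPS 1 at 7176, 8853 and 6690 TPM. Mt-atp8 fell by 0.366 in log2 terms (SE 0.0874, limma adjusted p = 0.0273), lower in 3 of 3 pairs. Under median-ratio scaling its change was 0.041 (adjusted p = 0.864), and with quantile normalization -0.375 without a call (adjusted p = 0.12). The call was also lost without replicate 1 (-0.332, adjusted p = 0.194), without replicate 3 (-0.338, adjusted p = 0.399), with no variance trend (adjusted p = 0.154), with medians over libraries (adjusted p = 0.233) and with no filter (adjusted p = 0.247).

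Mt-atp8 and Mt-atp6 overlap in mitochondrial DNA and lie on 1 transcript, so their reads had to be divided by estimate and both values are uncertain. Mt-atp6, the proton channel subunit, was at 25049, 21150 and 21314 TPM in Vehicle and at 22340, 21287 and 20517 TPM in LPS. The groups overlapped, with a change of -0.055 (limma adjusted p = 0.575). The ratio of Mt-atp8 to Mt-atp6, which does not depend on the scaling of a library, was 0.407, 0.42 and 0.449 in Vehicle and 0.339, 0.353 and 0.344 in LPS (0.425 ± 0.0214 and 0.345 ± 0.0071, SD, n = 3). The LPS ratios were all lower (two-sided exact permutation p = 0.1, the smallest that the 20 regroupings of 3 against 3 allow), in a comparison chosen after the values were seen. The other overlapping pair, Mt-nd4l and Mt-nd4, had a ratio of 1.69 ± 0.242 in Vehicle and 1.75 ± 0.294 in LPS (exact permutation p = 0.8).

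The 7 mitochondrially encoded complex I subunits had changes between -0.25 and 0.026, with 0 called. Mt-nd1, which sits where ubiquinone binds, was at 4815 ± 575 TPM in Vehicle against 4813 ± 67.1 TPM in LPS (SD, n = 3). The membrane subunits Mt-nd2, Mt-nd4 and Mt-nd4l were at 2657 ± 174, 2576 ± 541 and 4291 ± 762 TPM in Vehicle and at 2625 ± 278, 2445 ± 385 and 4220 ± 319 TPM in LPS. Mt-nd5 was at 1126 ± 230 and 1028 ± 113 TPM and Mt-nd3 at 577 ± 40.2 and 569 ± 97.5 TPM. Mt-nd6, the single protein gene on the light strand of mitochondrial DNA, was the lowest of the 13. It was at 315, 530 and 367 TPM in Vehicle and at 308, 394 and 284 TPM in LPS, with overlapping groups and a change of -0.25 (limma adjusted p = 0.2).

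Mt-cyb, the cytochrome b of complex III, was at 5858, 4995 and 5186 TPM in Vehicle and at 4928, 4687 and 4959 TPM in LPS. The groups did not overlap, by a narrow margin (-0.131, limma adjusted p = 0.286). It and Mt-atp8 were the 2 of 13 (15.4%) with all LPS samples below all Vehicle samples, against 47.1% of all tested genes. Of the complex IV subunits, Mt-co1 and Mt-co2 hold the redox centres. Mt-co1 was at 5475 ± 348 TPM in Vehicle against 6039 ± 956 TPM in LPS, and Mt-co2 at 9432 ± 868 and 9503 ± 1104 TPM (SD, n = 3). Mt-co3 was at 21909, 14825 and 20227 TPM in Vehicle and at 14370, 17704 and 17188 TPM in LPS. Vehicle 2 and LPS 1 were the low samples, and the change was -0.177 (limma adjusted p = 0.363). Without replicate 2 it was called (-0.394, adjusted p = 0.0343).

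**Figure D4:**
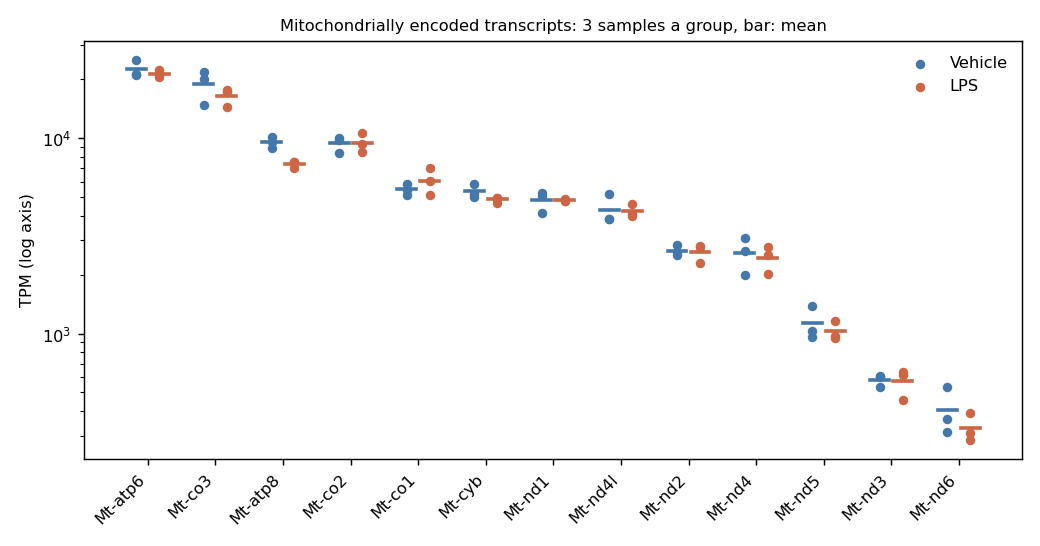
TPM of the 13 mitochondrially encoded genes (log axis) in 3 Vehicle and 3 LPS samples (points) with group means (bars), ordered by Vehicle mean from Mt-atp6 to Mt-nd6. The groups overlap in all but Mt-atp8 and Mt-cyb.

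**Figure D5:**
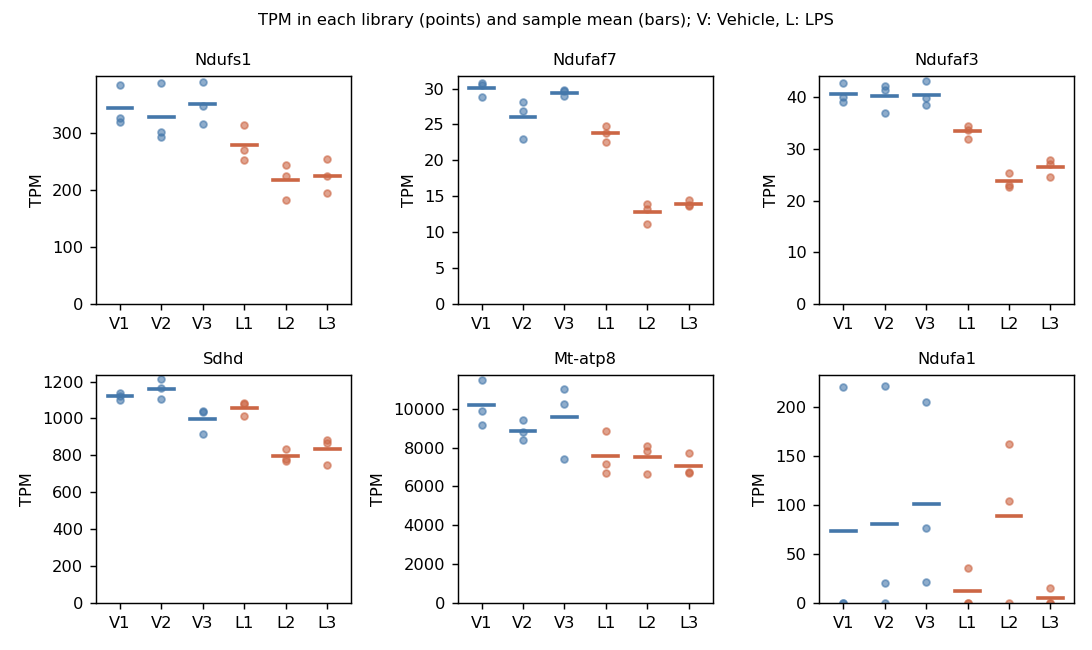
TPM in each library (points) and the mean of its sample (bars) for 6 members, with Vehicle samples V1 to V3 and LPS samples L1 to L3. In Ndufs1, Ndufaf7, Ndufaf3 and Mt-atp8 every LPS mean is below every Vehicle mean, and the libraries of Ndufa1 range from 0 to 222 TPM.

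Several genes that build, regulate or feed the chain were called. The lists below were chosen with earlier results of these data known, and differences between lists were not tested. Without replicate 3, and with medians over libraries, limma called 0 of all tested genes, so every call in these lists was lost there (738 and 1019 genes were higher, and 1463 and 4167 lower, at an unadjusted p under 0.05). The background over all tested genes is 7.17% higher and 22.2% lower with a median of -0.382. Of 35 tested assembly factors outside the naming rule, 0 were higher and 11 lower, or 31.4%, with a median of -0.413 near that of all genes. Coa6, a copper chaperone of complex IV, had the smallest p (-1.71, limma adjusted p = 0.0151), but its libraries disagreed within samples. Its LPS mean of 0.687 TPM was below the 1 TPM needed for a test, and it met that filter only through the Vehicle samples. It was listed at 0 in 3 of 9 Vehicle libraries and in 8 of 9 LPS libraries, with up to 13.9 TPM in Vehicle and 6.18 TPM in the remaining LPS library, a pattern like that of Ndufa1, and its zeros can be failed estimates. Sdhaf4, which assists the maturation of Sdha, fell by 1.01 (limma adjusted p = 0.0176), from 99.9 ± 19.1 to 52.5 ± 22.2 TPM (SD, n = 3). With median-ratio scaling 1 of the 35 was lower, Coa6 (adjusted p = 0.0455), and with quantile normalization 3, Coa6 and Sdhaf4 among them.

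Regulators of mitochondrial biogenesis were called in both directions, 2 of 16 higher (12.5%) and 4 lower (25%), against 7.17% and 22.2% of all tested genes. Ppargc1a, the coactivator PGC-1 alpha that drives respiratory chain genes, fell by 2.14 in log2 terms (SE 0.314, limma adjusted p = 0.00729), from 82.4 ± 25.3 to 18.3 ± 7.51 TPM (SD, n = 3). Its relative Ppargc1b fell by 1.92 (SE 0.281, limma adjusted p = 0.00723), from 6.49 ± 1.79 to 0.956 ± 0.205 TPM. Its LPS mean was below the 1 TPM needed for a test, and it met that filter only through the Vehicle samples. The nuclear receptor gene Ppard rose by 1.64 (SE 0.188, limma adjusted p = 0.00301), from 7.37 ± 1.81 to 25 ± 4.19 TPM. These 3 calls were kept under both of the other scalings. Nrf1, which encodes the factor whose core was searched above, was at 15.4 ± 2.21 TPM in Vehicle against 10.6 ± 1.55 TPM in LPS and was not called (-0.536, limma adjusted p = 0.0925), although without the block it was called lower (adjusted p = 0.0475).

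Of 25 genes that copy, process or maintain mitochondrial DNA and RNA, 1 was higher and 7 lower (28%, near the 22.2% of all tested genes, with a median of -0.413). Mterf2, of the mitochondrial transcription termination factor family, fell by 1.48 in log2 terms (limma adjusted p = 0.015), from 22.1 ± 0.767 to 7.92 ± 3.85 TPM (SD, n = 3). Pnpt1, the polynucleotide phosphorylase of mitochondria and also an interferon-stimulated gene, rose by 1.12 (limma adjusted p = 0.0184), from 29.9 ± 3.74 to 67 ± 15.5 TPM. Tfam, which packages and transcribes mitochondrial DNA, was at 82.4 ± 3.8 TPM in Vehicle against 66.2 ± 11 TPM in LPS and was not called (-0.322, limma adjusted p = 0.157). With median-ratio scaling this list had 2 higher, Pnpt1 among them, and 0 lower, and Mterf2 had an adjusted p of 0.0512.

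In the citric acid cycle list, which includes pyruvate dehydrogenase, 0 of 16 were higher and 3 lower (18.8%, against 22.2% of all tested genes), with all 16 changes below 0 in TPM and a median of -0.233 against -0.382 over all tested genes. That median was 0.173 with median-ratio scaling. Pdhb, a subunit of pyruvate dehydrogenase, fell by 0.537 in log2 terms (limma adjusted p = 0.0353), from 436 ± 42.4 to 304 ± 69.6 TPM (SD, n = 3), and Dld, the dihydrolipoamide dehydrogenase shared by several such complexes, fell by 0.539 (limma adjusted p = 0.039). Cs, citrate synthase, was at 253 ± 31.5 and 215 ± 5.78 TPM without a call (limma adjusted p = 0.248). The calls of Pdhb and Dld were lost with median-ratio scaling (-0.131 and -0.134, adjusted p = 0.415 and 0.442), as they were by quantiles (adjusted p = 0.0533 and 0.054).

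Of 8 electron carriers and other genes that feed the chain, 1 was higher (12.5%) and 1 lower (12.5%), against 7.17% and 22.2% of all tested genes. Gpd2, the mitochondrial glycerol phosphate dehydrogenase, rose by 0.858 in log2 terms (limma adjusted p = 0.0216), from 37 ± 8.36 to 69.5 ± 21.9 TPM (SD, n = 3). Dhodh, which passes electrons from pyrimidine synthesis to ubiquinone, fell by 1.28 (limma adjusted p = 0.0132), from 10.7 ± 1.97 to 3.9 ± 1.29 TPM. Cycs, cytochrome c itself, was at 584 ± 46.1 and 541 ± 23.5 TPM (-0.109, limma adjusted p = 0.514). Gpd2 stayed called under both of the other scalings, and Dhodh lost its call there (adjusted p = 0.0504 by median ratio and 0.0569 by quantiles).

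Among 16 carriers, uncoupling and antioxidant genes, 2 were higher (12.5%) and 0 lower, against 7.17% and 22.2% of all tested genes. By limma 0 were lower also under both of the other scalings, and 3 were lower in TPM at an unadjusted p under 0.05. Sod2, the superoxide dismutase of the mitochondrial matrix, rose by 2.43 in log2 terms (SE 0.335, limma adjusted p = 0.0061), from 275 ± 12.9 to 1677 ± 856 TPM (SD, n = 3). Acod1, which makes itaconate, a known inhibitor of complex II, rose by 1.44 (limma adjusted p = 0.0135), from 0.329 ± 0.162 to 2.64 ± 0.331 TPM. Its Vehicle mean was below the 1 TPM needed for a test, and it met that filter only through the LPS samples. It is known from activated macrophages, and 5 of 11 tested macrophage markers were called higher and 1 lower, with sums of 130 to 270 TPM in Vehicle and 223 to 470 TPM in LPS. Their part in this rise was not tested. Both calls were kept under both of the other scalings.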

How the data were processed

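The deposited table holds TPM per gene and library, which the authors made with STAR 2.7.9a and RSEM 1.3.3 on build Rnor_6.0, per the submitters' processing notes. The annotation release is not given in the sources used here. Per the labels, cDNA from polyA RNA was PCR-amplified and tagmented. TPM keeps no read number, so depth is unknown and counting intervals cannot be had. RSEM divides reads between similar transcripts by estimate, so duplicate symbols and overlapping genes are uncertain.

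Column names beginning with N were read as normal saline and with L as LPS. The 3 libraries of a numbered sample were averaged as log2(TPM + 1), which understates changes of low genes, and the sample was the unit of replication. The groups were compared in limma 3.58.1 (R 4.3.3), two-sided, using empirical Bayes moderation with a trend. Sample number was a block, since pairing is stated in the series' design. Benjamini-Hochberg adjustment covered the 12393 genes averaging 1 TPM or more, and a call needed an adjusted p under 0.05. Nothing says that numbered samples were separate animals, so a p-value here reflects only sample-to-sample spread, which may be technical. The code was tested on simulated data.

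Members and lists were chosen with earlier results of these data known. Named members were those called, all mitochondrially encoded genes, the most abundant and most changed in each complex, and a preset group. In related lists they were the 2 called genes with the smallest p and a preset group. The complexes of Cox7a2l2, Ndufa10l1 and Cox6c-ps1 were assigned after the table was seen. Alternatives varied the block, library summary, pseudocount, filter, scaling, variance trend and samples. Leaving out LPS 1 or library 1 of Vehicle 3, and scaling without the block, were chosen after seeing the data. No genome of build Rnor_6.0 was used, so genes have no coordinates in that build. Promoters are from RefSeq on GRCr8, matched by symbol.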

Additional observations from a re-analysis of the deposited data

How the results depend on the processing

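Median-ratio scaling turned the nuclear median from -0.065 to 0.341, with or without the replicate block, and turned Mt-atp8 to 0.041 in both fits. The median of all tested genes also moved, from -0.382 to -0.02. The cause was not tested. With that scaling 1 nuclear member was called higher and 0 lower, and mitochondrially encoded calls were 0 higher and 0 lower. At an unadjusted p under 0.05 by limma, 35 nuclear and 4 mitochondrially encoded members were higher, against 2328 of all 12393 tested genes. Without the block this scaling gave 10 nuclear members higher (11.5%, the same share as over all tested genes) and 0 lower. These were Ndufa3, Ndufa7, Ndufa13, Ndufb2, Ndufaf8, Cox6b1, Cox7a2l2, Atp5mf, Atp5mg and Atp5if1. That fit also gave 1 mitochondrially encoded member higher, Mt-co1, and 0 lower. Nuclear members called lower numbered 11 with all 18 libraries, an estimated correlation and the replicate block, 1 with quantile normalization, 1 with no variance trend, 0 with medians over libraries, 0 with no filter and 0 without library 1 of Vehicle 3; by limma 12, 3, 3, 3 and 4 were lower at an unadjusted p under 0.05 in the last 5. Mitochondrially encoded members called lower numbered 0 with medians over libraries, with no filter, with quantile normalization and with no variance trend, where 0, 0, 2 and 0 passed unadjusted. With the median over libraries 0 of all tested genes were called in either direction, and with no filter 18 were higher and 2 lower. Over all tested genes the share called lower was 42.7% with all 18 libraries and 4.5% with quantile normalization. It was 19.2% with no variance trend and 13.7% without library 1 of Vehicle 3. At an unadjusted p under 0.05 by limma, 2664 of all 12393 tested genes were lower with quantile normalization. The same count was 4666 with no variance trend, 4167 with medians over libraries and 4713 without library 1 of Vehicle 3. With no filter it was 5352 of 23716. Leaving out a replicate, or LPS 1 with no block, gave 0 to 18 nuclear and 0 to 2 mitochondrially encoded members called lower. The share of all tested genes called lower ran from 0% to 46.4% in these fits.

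Without the replicate block 3 nuclear members and 1 mitochondrially encoded member were lower, which added Ndufaf3; among the named genes of the related lists it added Nrf1 alone. Same-numbered samples deviated together weakly or not at all (correlations over genes of 0.062, -0.017 and 0.069), and the block follows the stated design. The depth of the libraries is unknown, and 3 samples a group limit what can be called.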
